A study of Oryctolagus cuniculus with 16 samples.

Results

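The expression of 10 genes of the blood vessel lining and its growth signals was followed through the vaginal wall of the rabbit: PECAM1, CDH5, ENG and VWF of the endothelial surface and junctions, the VEGF receptors KDR and FLT1, the Tie receptors TEK and TIE1, and the secreted ligands VEGFA and ANGPT2. They were taken by gene symbol because endothelial identity and VEGF and angiopoietin signalling bear on how a graft gains a blood supply. All 10 were found among the 13001 named genes of the count table, and all 10 were among the 10942 genes tested after a filter on low counts. The study compared healing of the vagina after autologous micrografting with healing after acellular grafting. Polyadenylated RNA of whole vaginal tissue was sequenced from rabbits of the New Zealand White breed, all female and between 17 and 19 weeks old. There were 6 libraries from native vagina without surgery (control 2, 9, 16, 24, 25 and 29) and 3 from sham-operated vagina (sham 11, 12 and 14). A further 3 came from vagina that had received a graft without particles (acellular 6, 8 and 10), and 4 came from vagina that had received a PLATE graft, which carried tissue particles (PLATE 1, 5, 9 and 13). The tissue of both graft groups lay 10 mm away from the graft, so the values describe neighbouring tissue and not the graft. The time after surgery, and the sampling distance in sham and control, are not given in the sources used here. The number 9 stands on a control and on a PLATE library, which were treated as separate rabbits.

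Endothelial cells line all vessels and hold together through junction proteins, among them the cadherin encoded by CDH5. VEGFA, released by tissue short of oxygen and by many stromal and epithelial cells, acts through KDR to make endothelial cells divide and sprout, and FLT1 binds the same ligand tightly and can limit its action. TEK binds ANGPT1, which keeps vessels quiet, and ANGPT2, which endothelial cells store and release when vessels are remodelled. In the vagina a dense vessel bed beneath the epithelium and in the muscle wall carries the flow behind lubrication and repair.

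Libraries held 15348880 to 23236339 counts on named genes, so every one of the 10 genes was counted at least 141 times in each library. Levels are given as CPM, a count relative to the scaled library size, and can be compared between libraries but not between genes, since they are not divided by gene length. Several libraries stood apart from their groups. Control 2 held almost no epithelium, with the epithelial cadherin CDH1 at 1.35 CPM against 13.7 to 238 CPM elsewhere. Its scaling factor was 0.592, against 0.917 to 1.15 in the other libraries. Before scaling, its 10 members took 0.0395% of the named counts, between control 25 (0.0307%) and acellular 6 (0.0503%). After scaling they summed to 667 CPM, against 324 and 447 CPM in those libraries, so the place of control 2 depends on the scaling. PLATE 1 held the most leukocyte transcripts, with the summed level of 5 leukocyte markers at 1200 CPM against 72.0 to 616 CPM in the other 15 libraries. Endothelial markers beyond the 10 genes were present throughout: 30 tested endothelial identity genes summed to between 708 and 1517 CPM in every library. In whole tissue, fewer endothelial cells and less RNA per endothelial cell cannot be told apart.

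No member differed between any 2 groups after adjustment. In each of the 6 comparisons edgeR's quasi-likelihood test called 0 of the 10 members and 0% of the 10942 genes (adjusted p under 0.05), and a joint test of any difference among the 4 groups gave the members adjusted p-values of 0.901 to 0.990. In that joint test 0 of the 10 had an unadjusted p under 0.05, and 4.8% of all genes did. At an unadjusted p under 0.05 there was 1 member, PECAM1, in PLATE against control, where 4.39% of all genes passed, and in PLATE against acellular, where 4.71% passed. No member reached that level in sham against control (2.98% of all genes), acellular against control (6%), acellular against sham (4.87%) or PLATE against sham (7.5%). The 95% confidence intervals of the log2 fold changes were 0.938 to 2.24 log2 units wide, so a missed threshold does not show that the groups were alike. The labels do not say more about the replicates than their animal numbers, and the p-values measure the spread between these libraries.

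**Figure D1:**
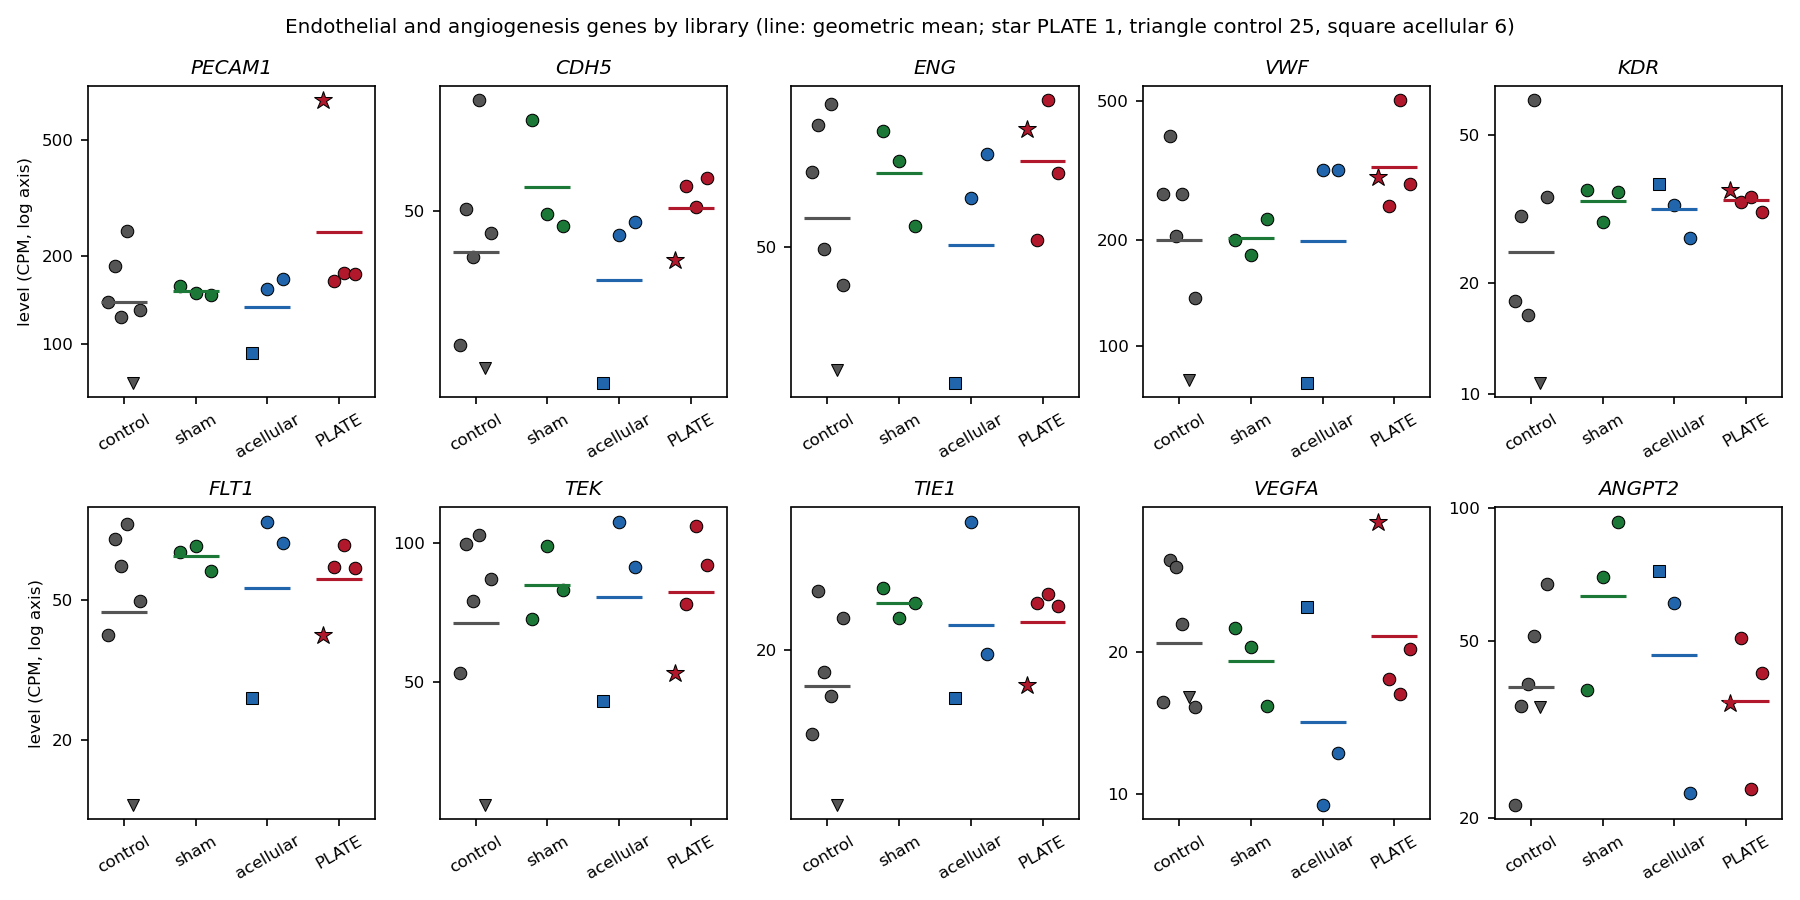
CPM of the 10 genes in each of the 16 libraries, on a log axis, with libraries grouped as control, sham, acellular and PLATE and the geometric mean of each group drawn as a line. Control 25 and acellular 6 lie low in most receptor and junction genes, and PECAM1 in PLATE 1 lies at 685 CPM, above every other library.

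PECAM1, the platelet and endothelial adhesion molecule at endothelial contacts, ran from 73.8 to 244 CPM in the 6 control libraries (median 135). It was 159, 150.2 and 147 CPM in sham 11, 12 and 14. In the acellular group it was 93.7, 155 and 167 CPM in libraries 6, 8 and 10, and in the PLATE group 685, 165, 175 and 174 CPM in libraries 1, 5, 9 and 13. Every PLATE library lay above every sham library, but 3 of the 4 by a small margin and PLATE 1 alone by a wide one. PLATE averaged 299.8 ± 257 CPM (SD, n = 4) against 149.7 ± 58.4 in control (n = 6), a log2 fold change of 1.00 ± 0.40 (SE; adjusted p = 0.998 by edgeR with Benjamini-Hochberg adjustment). The 95% interval was 0.16 to 1.85, and without PLATE 1 the log2 fold change was 0.19. Against acellular it was 1.11 ± 0.49 (edgeR adjusted p = 0.875), and 0.30 without PLATE 1. The other 3 PLATE libraries averaged 171 ± 5.59 CPM.

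CDH5, the cadherin of endothelial adherens junctions, ran from 25.1 to 81.6 CPM in control (median 43.1). It was 74.8, 49.4 and 46.9 CPM in sham 11, 12 and 14, then 23.5, 45.2 and 47.7 CPM in acellular 6, 8 and 10, and 40.3, 55.9, 51 and 58.1 CPM in PLATE 1, 5, 9 and 13. Sham 11 was high and acellular 6 low, and all 4 groups overlapped. Its log2 fold change from sham to acellular was -0.56 ± 0.38 (n = 3 against 3; edgeR adjusted p = 0.902), and -0.30 without sham 11. Unlike PECAM1, CDH5 in PLATE 1 was the lowest of its group.

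ENG, endoglin, a co-receptor for TGF-beta family ligands on endothelium, ran from 30.6 to 88.8 CPM in control (median 58.6). It was 79.6, 70.7 and 54.4 CPM in sham 11, 12 and 14, then 29.0, 61 and 72.7 CPM in acellular 6, 8 and 10, and 80.5, 51.5, 90.2 and 67.3 CPM in PLATE 1, 5, 9 and 13. Acellular 6 was the lowest of all 16 libraries and PLATE 9 the highest, and the groups overlapped. Its largest group difference, PLATE against acellular, was 0.42 ± 0.36 on the log2 scale (edgeR adjusted p = 0.888) and 0.12 without acellular 6.

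VWF encodes von Willebrand factor, the clotting protein stored in endothelial granules together with ANGPT2. It ran from 80.1 to 396 CPM in control (median 238), and was 199.8, 181 and 229 CPM in sham 11, 12 and 14. In acellular 6, 8 and 10 it was 78.3, 317 and 318 CPM, and in PLATE 1, 5, 9 and 13 it was 303, 251, 502 and 289 CPM. All 4 PLATE libraries lay above all 3 sham libraries. PLATE averaged 336 ± 112.8 CPM against 203 ± 24.2 in sham, a log2 fold change of 0.72 ± 0.50 with an interval of -0.34 to 1.79 (edgeR adjusted p = 0.715), and 0.46 without PLATE 9. PECAM1 and VWF were thus 2 of 10 members whose PLATE and sham libraries did not overlap. Of all genes 14.9% did not overlap in this comparison, and 7.91% did so with PLATE higher. In each of the other 5 comparisons 0 of 10 members had groups that did not overlap, where the share of all genes was 3.69% (sham against control), 1.73% (acellular against control), 0.119% (PLATE against control), 18.3% (acellular against sham) and 4.97% (PLATE against acellular).

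KDR, the main signalling receptor for VEGFA, varied widely among the controls, from 10.7 CPM in control 25 to 62.2 CPM in control 24 (median 24.0). It was 35.7, 29.1 and 35.1 CPM in sham 11, 12 and 14, then 36.9, 32.5 and 26.3 CPM in acellular 6, 8 and 10, and 35.6, 33.0, 34.1 and 31.0 CPM in PLATE 1, 5, 9 and 13. The 10 operated libraries spanned 26.3 to 36.9 CPM and all lay inside the control range. Mean levels were 28.6 ± 18.7 CPM in control, 33.3 ± 3.63 in sham, 31.9 ± 5.32 in acellular and 33.4 ± 1.90 in PLATE. The log2 fold change of PLATE against sham was 0.0056 ± 0.42, with an interval of -0.89 to 0.91. In acellular 6, where the receptors FLT1, TEK and TIE1 were the lowest of their group, KDR was the highest.

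FLT1, the other VEGFA receptor, ran from 13.1 to 82.3 CPM in control (median 56). It was 68.5, 71.2 and 60.5 CPM in sham 11, 12 and 14, then 26.4, 83.4 and 72.4 CPM in acellular 6, 8 and 10, and 39.8, 62, 71.8 and 61.6 CPM in PLATE 1, 5, 9 and 13. Control 25, acellular 6, control 2 and PLATE 1 were the 4 lowest libraries, and every group except sham held 1 or more of them. The 6 log2 fold changes lay between -0.18 (PLATE against sham) and 0.32 (sham against control), each smaller than its standard error of 0.395 to 0.501.

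TEK, the angiopoietin receptor also called TIE2, ran from 27.0 to 104.2 CPM in control (median 79.3). It was 68.4, 98.9 and 79.1 CPM in sham 11, 12 and 14, then 45.3, 111.6 and 88.8 CPM in acellular 6, 8 and 10, and 52.1, 73.6, 109.2 and 89.9 CPM in PLATE 1, 5, 9 and 13. The operated groups averaged 82.2 ± 15.5 CPM (sham), 81.9 ± 33.7 CPM (acellular) and 81.2 ± 24.2 CPM (PLATE), means closer together than the libraries within any of them, and control averaged 73.6 ± 29.5 CPM. The low libraries of FLT1 were low in TEK as well.

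TIE1, the partner receptor of TEK which forms a complex with it, had the narrowest intervals of the 10 genes. It ran from 11.5 to 24.7 CPM in control (median 17.7), and was 25.0, 22.4 and 23.6 CPM in sham 11, 12 and 14. In acellular 6, 8 and 10 it was 16.8, 31.7 and 19.7 CPM, and in PLATE 1, 5, 9 and 13 it was 17.6, 23.7, 24.5 and 23.4 CPM. Control averaged 18.1 ± 4.88 CPM, and 2 controls (9 and 29) reached the sham range. The log2 fold change of sham against control was 0.38 ± 0.24, with an interval of -0.12 to 0.89 (edgeR adjusted p = 0.963). Against acellular the PLATE group gave -0.028 ± 0.26, with an interval of -0.59 to 0.53.

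VEGFA, the ligand of both VEGF receptors above, ran from 15.3 to 31.3 CPM in control (median 19.5). It was 22.5, 20.4 and 15.3 CPM in sham 11, 12 and 14, then 24.9, 9.48 and 12.2 CPM in acellular 6, 8 and 10, and 37.8, 17.5, 16.3 and 20.3 CPM in PLATE 1, 5, 9 and 13. The 2 lowest libraries of all were acellular 8 and 10 and the highest was PLATE 1, but acellular 6 lay above the control median. The mean of acellular was 15.5 ± 8.24 CPM against 21.9 ± 7.46 in control, a log2 fold change of -0.50 ± 0.36 (edgeR adjusted p = 0.881), which was -0.24 without acellular 8 and -1.02 without acellular 6. PLATE against acellular gave 0.56 ± 0.39 (edgeR adjusted p = 0.875), 0.21 without PLATE 1 and 1.08 without acellular 6.

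ANGPT2, the angiopoietin of vessel remodelling, ran from 21.4 to 67.3 CPM in control (median 37.8). It was 38.8, 69.6 and 93.0 CPM in sham 11, 12 and 14, then 72.2, 61.1 and 22.8 CPM in acellular 6, 8 and 10, and 36.2, 50.7, 23.2 and 42.3 CPM in PLATE 1, 5, 9 and 13. Sham and acellular libraries were widely spread, and the PLATE libraries all lay within the control range. Sham averaged 67.1 ± 27.2 CPM against 41.9 ± 15.7 in control, a log2 fold change of 0.68 ± 0.38 (edgeR adjusted p = 0.963), and 0.37 without sham 14. PLATE against sham gave -0.82 ± 0.42, with an interval of -1.71 to 0.075 (edgeR adjusted p = 0.658), and -0.51 without sham 14.

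**Figure D2:**
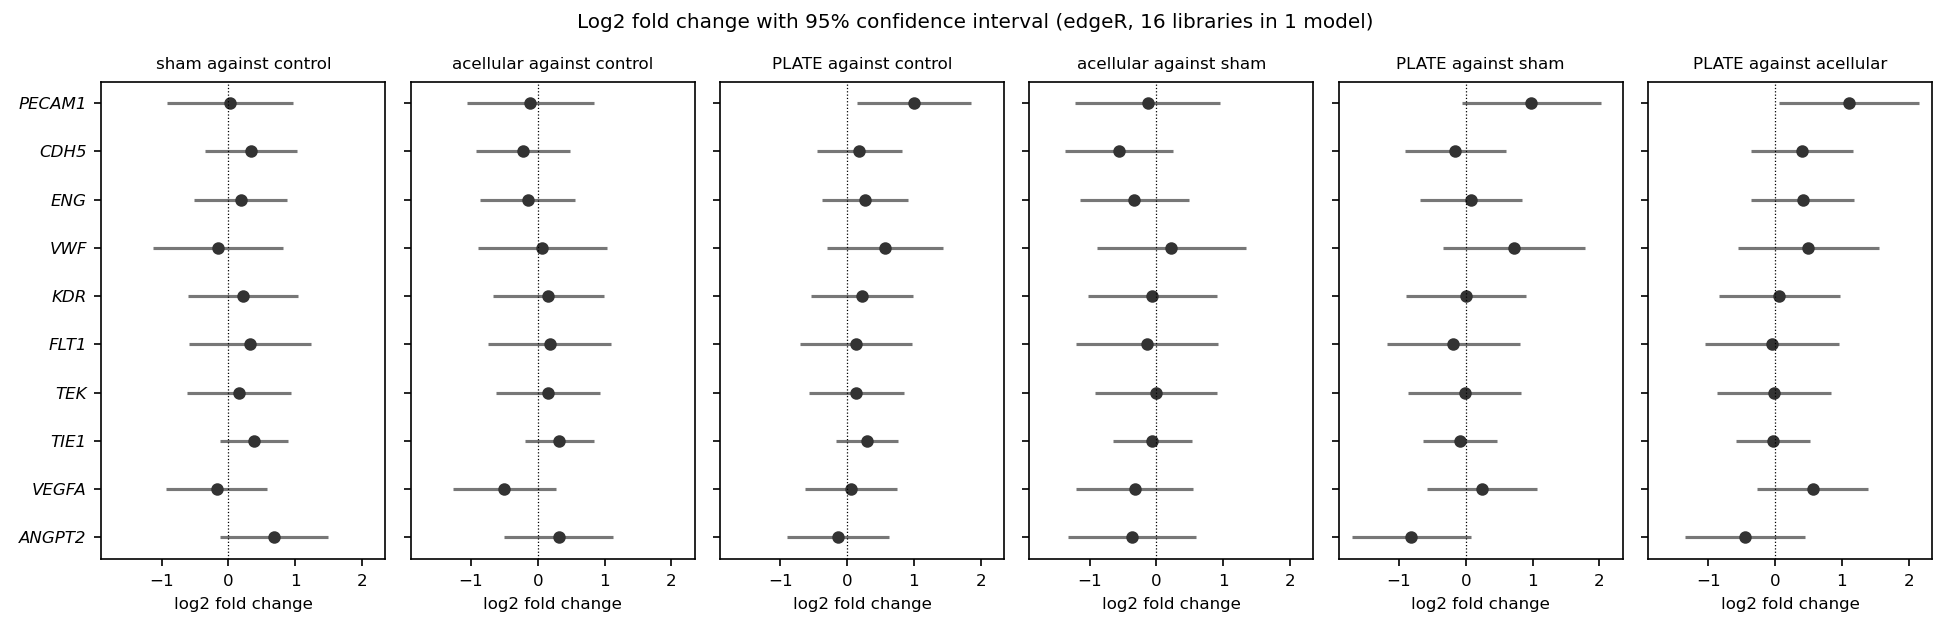
Log2 fold changes of the 10 genes in the 6 comparisons of groups, with 95% confidence intervals from edgeR as bars and a vertical line at 0. The intervals exclude 0 only for PECAM1 in PLATE against control (0.16 to 1.85) and PLATE against acellular (0.07 to 2.16), and 0 of the 60 passed after adjustment.

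Most members had positive log2 fold changes in the operated groups against control, but most of these were smaller than their standard error and 0 passed. The log2 fold change exceeded its standard error for CDH5, TIE1 and ANGPT2 in sham, for TIE1 in acellular and for PECAM1, TIE1 and VWF in PLATE, and VEGFA in acellular lay below control by more than its standard error. In sham against control 8 of 10 members had a positive log2 fold change (median 0.20), where 42.1% of all genes did. In PLATE against control there were 9 of 10 (median 0.20, 47.7% of all genes), and in acellular against control 6 of 10 (median 0.11, 45.8% of all genes). Control 25 bore on all 3 counts: without it they were 6, 6 and 2 of 10, with medians of 0.048, 0.057 and -0.066. Without control 2 the PLATE against control count was 8 of 10, with a median of 0.091. Between operated groups, acellular against sham had 1 of 10 positive (median -0.13, 52.2% of all genes), and 5 of 10 without acellular 6. PLATE against sham had 5 of 10 (median -0.0057, 52.6% of all genes). PLATE against acellular had 6 of 10 (median 0.24, 52.4% of all genes), and 9 of 10 without PLATE 1. Without acellular 6 its median was 0.099. The comparisons share groups, so their counts are not independent.

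The spread of the members within groups was uneven. Of the 8 receptor and junction genes (all but VEGFA and ANGPT2), 5 had their lowest level in control 25 (PECAM1, KDR, FLT1, TEK and TIE1) and 3 in acellular 6 (CDH5, ENG and VWF). Averaged over the 8 genes as standard deviations from each gene's mean over the 16 libraries, control 25 lay at -2.21 and acellular 6 at -1.27, and the other 14 libraries lay between -0.65 and 0.86. The lowest of those 14 was control 2, whose place depends on the scaling. Within control the median SD of the members was 0.603 on the log2 scale against 0.443 over all genes, and within acellular 0.689 against 0.358. Within sham it was 0.219 against 0.192, and within PLATE 0.402 against 0.425, or 0.142 against 0.233 without PLATE 1. These medians hide differences between genes: the SD of ANGPT2 was 0.642 in sham and 0.588 in PLATE without PLATE 1, above its 0.557 in control, and that of VWF was 0.529 in the same PLATE libraries against 0.823 in control. The summed level of the 10 members in control 25 was 324 CPM, and the sums in the 3 sham libraries were 763 to 785 CPM.

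**Figure D3:**
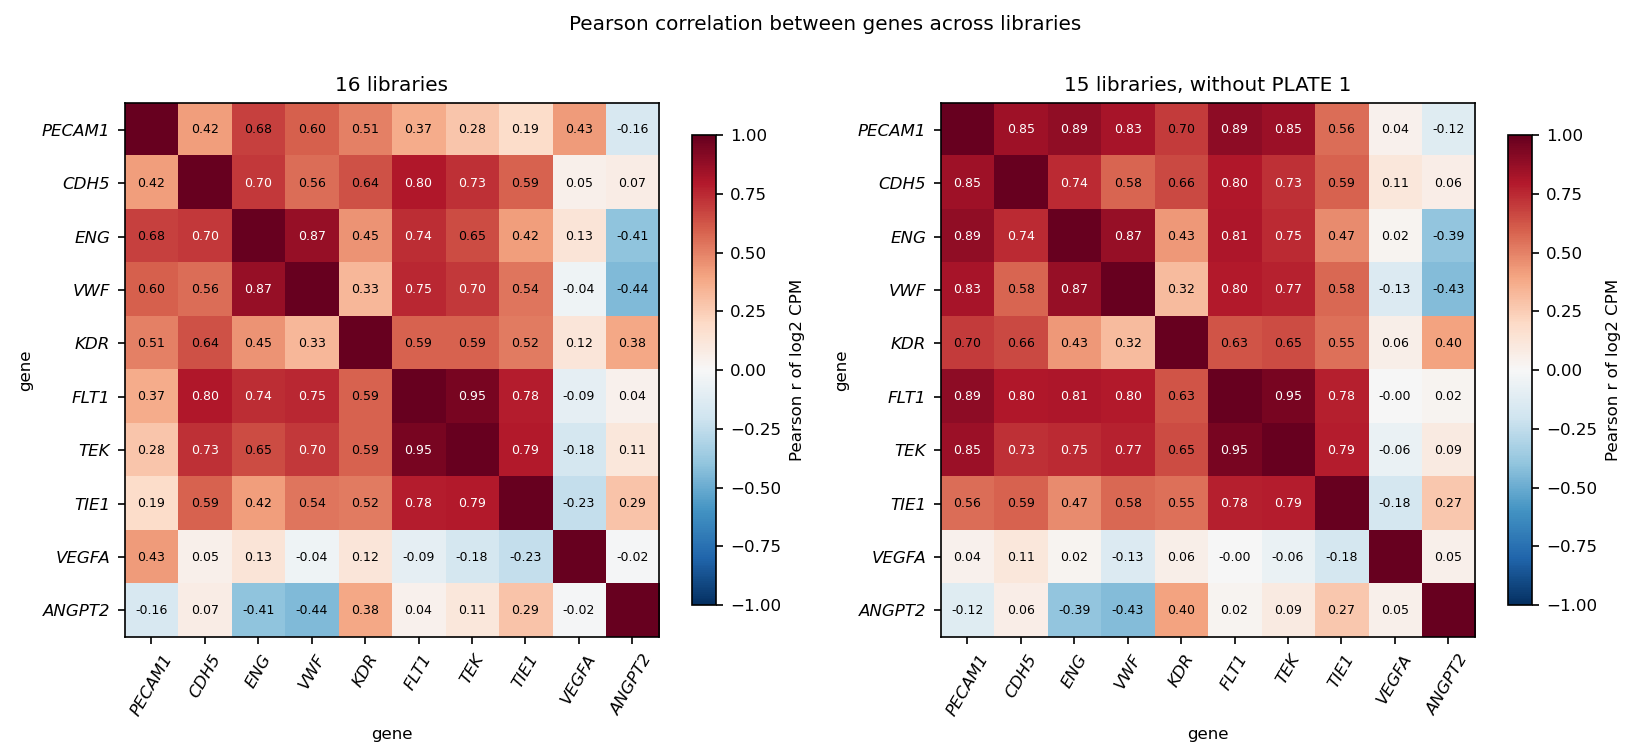
Pearson correlation of log2 CPM between each pair of the 10 genes from -1 to 1 by colour, over the 16 libraries (left) and over 15 without PLATE 1 (right). Over 16 libraries the receptor and junction genes are positively correlated in every pair (0.19 to 0.95). Pairs with VEGFA or ANGPT2 have correlations of both signs (-0.44 to 0.43).

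All pairs of receptor and junction genes were positively correlated by Pearson across libraries, but fewer pairs passed by rank. Pearson's r of log2 CPM over the 16 libraries was 0.187 to 0.950 in the 28 pairs of the 8 genes (median 0.595), and 13 of the 28 passed a permutation test after adjustment over 47 relations. By Spearman the median rho was 0.559 and 4 of the 28 passed, PECAM1 with VWF, PECAM1 with ENG, FLT1 with TEK and VWF with ENG. KDR followed the others least by rank, with rho at 0.062 with FLT1, 0.047 with TEK and -0.053 with VWF. The highest was FLT1 with TEK, at r = 0.950 and Spearman's rho = 0.865 (100000 permutations, p = 1e-05, the smallest they can give, and adjusted p = 0.00047). It was 0.869 without control 25 and acellular 6, the libraries farthest from the median of FLT1. VWF with ENG gave r = 0.872 and rho = 0.735 (permutation p = 3e-05 for r and 0.0017 for rho), and 0.652 without the same 2 libraries. Other pairs weakened more without those libraries: CDH5 with ENG went from 0.703 to 0.335, and FLT1 with VWF from 0.750 to 0.253. PECAM1 was set apart by PLATE 1, since its 7 pairs had a median r of 0.418 with that library and 0.850 without it. In the 17 pairs with VEGFA or ANGPT2, r lay between -0.441 and 0.426 (median 0.043) and 0 passed by either measure. VEGFA with ANGPT2 gave r = -0.015. The libraries share depth and tissue composition, and 4 groups were pooled.

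Outside the 10 genes, the 5 tested genes whose log2 CPM followed the mean of the 8 receptor and junction genes most closely were CD93 (r = 0.957 over 16 libraries), ADCY4 (0.906), FRMD3 (0.903), ZFYVE26 (0.886) and FBN1 (0.883). CD93 encodes an endothelial surface glycoprotein, and it ran from 15.4 CPM in control 25 and 20.3 CPM in acellular 6 to 57 CPM in sham 11. ADCY4 encodes an adenylyl cyclase and FBN1 the microfibril protein fibrillin. For VEGFA the closest were TMEM39A (0.894), C2CD2L (0.880), BRPF1 (0.856), NRBF2 (0.854) and TVP23A (0.838). For ANGPT2 they were NAPB (0.929), ZZZ3 (0.871), YTHDC1 (0.864), CASP8AP2 (0.856) and COG3 (0.847). These are the highest of all genes tested and are given as a description.

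**Figure D4:**
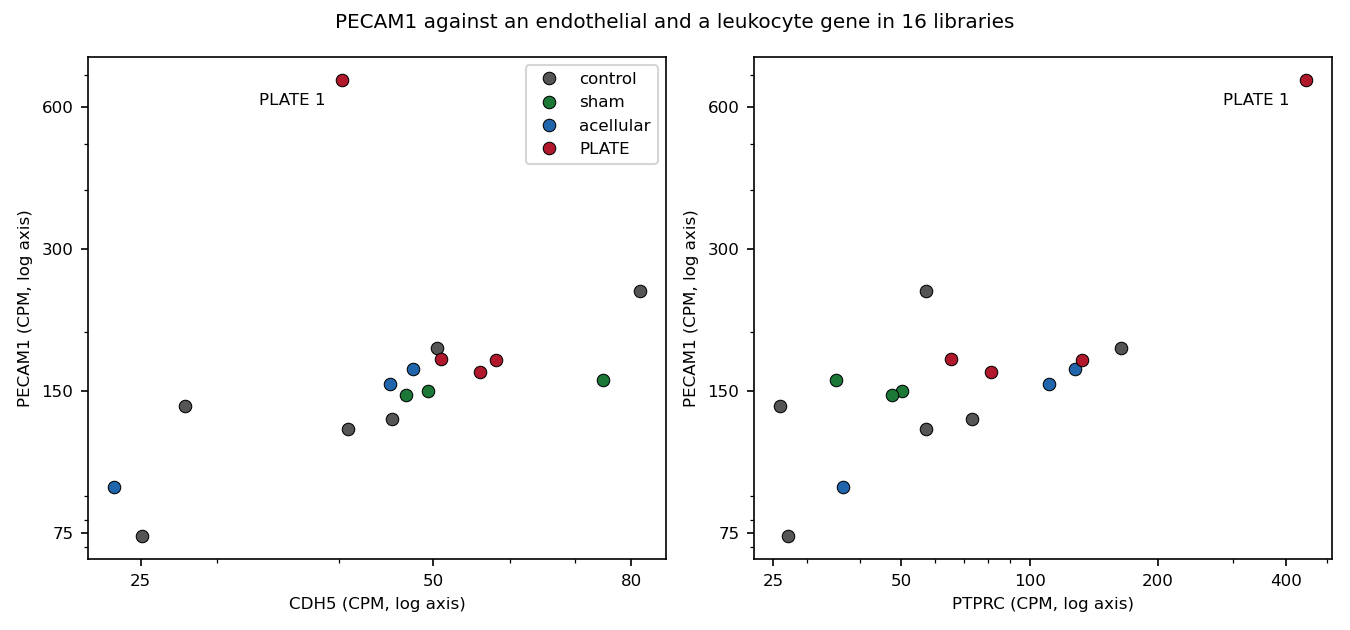
PECAM1 CPM of each of the 16 libraries against CDH5 CPM and against PTPRC CPM, on log axes, coloured by group. PLATE 1 lies off the line of the other libraries against CDH5 (685 CPM of PECAM1 at 40.3 CPM of CDH5) and at the top right against PTPRC (445 CPM).

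PECAM1 is carried by platelets and many leukocytes as well as by endothelium, and its level in PLATE 1 was out of step with the other endothelial genes. PECAM1 counts per CDH5 count were 17.0 in PLATE 1 and 2.12 to 5.02 in the other 15 libraries, and per TIE1 count 39.0 against 4.90 to 14.4. PTPRC, the pan-leukocyte antigen CD45, was 445 CPM in PLATE 1 and 26.0 to 163 CPM elsewhere. PECAM1 per PTPRC in PLATE 1 was 1.54, inside the range of the other libraries (1.13 to 5.36). The colony-stimulating factor receptor CSF1R of macrophages was 378 CPM in PLATE 1 against 15.5 to 148 CPM elsewhere, and ITGAM, an integrin of myeloid cells, 89.9 CPM against 4.04 to 26.6 CPM. All 5 tested leukocyte markers were detected in every library. They did not all go the same way: in PLATE against control 4 were higher and 1 was lower. The lower marker was not PTPRC, CSF1R or ITGAM but 1 of the remaining markers, CD163 and MPEG1. The log2 fold changes of the 5 markers ran from -1.02 to 1.42, with a median of 1.07. Of 3 platelet markers in the table, ITGA2B lay at 5.69 CPM in PLATE 1 against 2.09 to 8.97 CPM elsewhere, and GP9 and GP1BA had at most 3 counts in any library. Across the 16 libraries PECAM1 correlated with PTPRC at r = 0.781 and rho = 0.668 (permutation p = 0.00094 and 0.00594). After adjustment the permutation p was 0.00638 for r and 0.0558 for rho, so that r passed and rho did not. Without control 25 and PLATE 1, r was 0.424, so that the relation rested in part on those 2 libraries. CDH5 correlated with PTPRC at r = 0.278. Without PLATE 1 alone, r was 0.556 for PECAM1 and 0.452 for CDH5. The part of leukocytes in the PECAM1 difference was not tested.

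Ratios of 2 genes within a library depend little on how libraries are scaled; 0.5 CPM was added to each gene. ANGPT2 per ANGPT1, the balance of the 2 TEK ligands, was 4.08 ± 0.85 on the log2 scale in acellular, 3.82 ± 1.14 in sham, 2.94 ± 0.49 in control and 2.79 ± 0.70 in PLATE. Acellular exceeded control by 1.15 (two-sided exact permutation p = 0.0238, adjusted p = 0.714 over 30 tests), and PLATE lay below acellular by 1.29 (exact p = 0.0571, adjusted p = 0.857, where 0.0286 is the smallest p that 4 against 3 can give). Without acellular 6 these differences were 0.66 and -0.80. All 4 PLATE libraries (1.86 to 3.42) lay below all 3 acellular libraries (3.45 to 5.05), by a margin smaller than the spread of either group. The ratios of FLT1 to KDR, VEGFA to FLT1, VWF to PECAM1 and TIE1 to TEK gave adjusted p-values of 1 in every pair of groups. Acellular against sham, with 3 libraries each, cannot go below an exact p of 0.1.

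**Figure D5:**
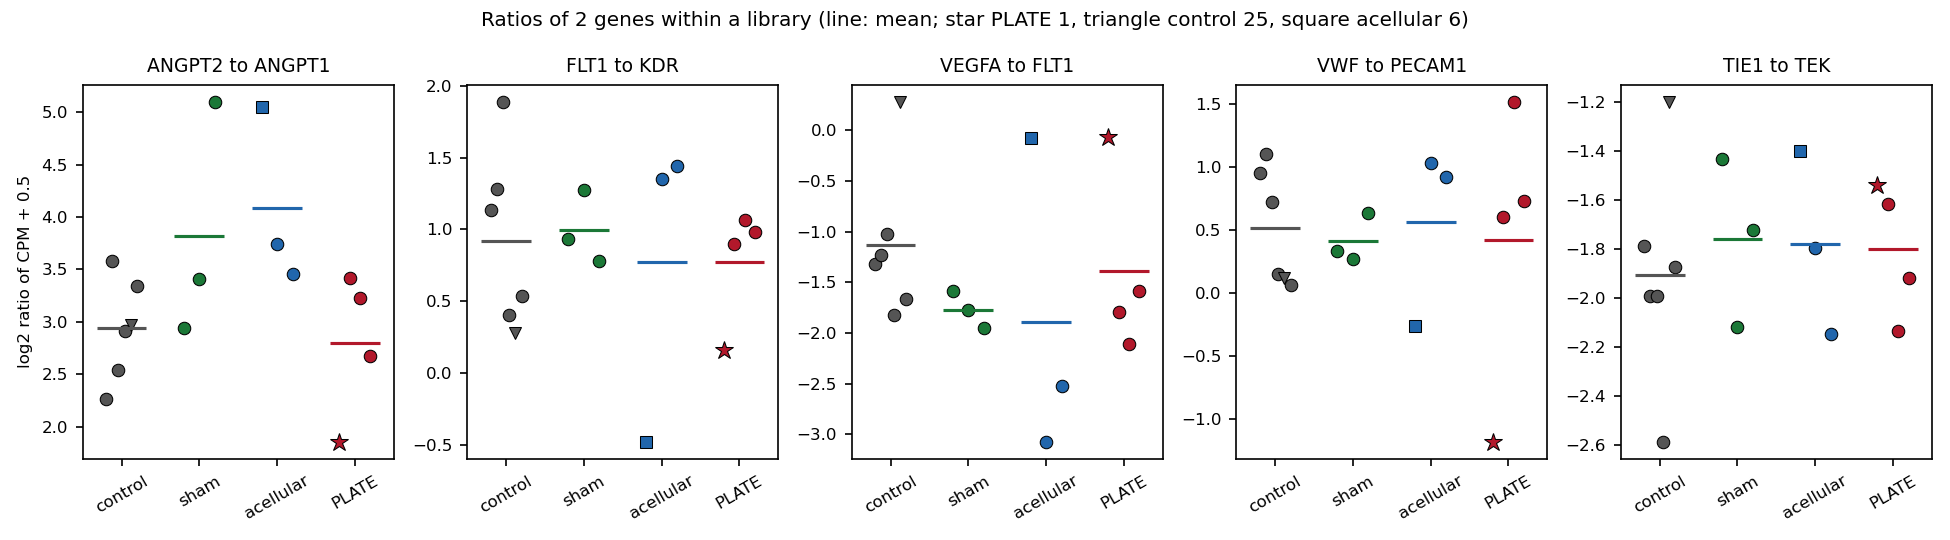
Log2 ratio of CPM (each with 0.5 added) between 2 genes in each of the 16 libraries for the 5 ratios, by group, with group means as lines. ANGPT2 to ANGPT1 averages 4.08 in acellular and 2.79 in PLATE, and the other 4 ratios overlap between all groups.

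Around the 10 members, 9 lists of the pathway and its cells with 140 genes were written, and 0 of those tested passed in any pair of groups (smallest adjusted p = 0.657 by edgeR). For the counts of list genes higher below, the share of all genes higher against control was 42.1% in sham, 45.8% in acellular and 47.7% in PLATE. It was 52.2% in acellular against sham, 52.6% in PLATE against sham and 52.4% in PLATE against acellular. The 23 tested genes named by role gave 138 differences over the 6 comparisons, and 7 of them (5.07%) had an unadjusted p under 0.05, beside 2.98 to 7.5% of all genes per comparison. Those 7 are given with their log2 fold changes, and the other genes by their levels. Among VEGF partners, the co-receptor NRP2 was 142, 216 and 165 CPM in acellular 6, 8 and 10, against 694, 335 and 343 CPM in sham 11, 12 and 14 and 125 to 494 CPM in control. The acellular libraries lay below all sham libraries and within the control range. The log2 fold change was -1.39 ± 0.48 against sham (edgeR adjusted p = 0.902) and -1.07 ± 0.43 against control (edgeR adjusted p = 0.827). The smooth muscle markers were lower in the same comparisons, 5 of 5 in each, with medians of -1.99 and -2.47. NRP2 was also lowest among controls in control 9 and control 29 (125 and 249 CPM), where the summed smooth muscle markers were lowest (8906 and 17293 CPM, against 56998 to 155544 CPM in the other controls), and their part was not tested. NRP1, the other neuropilin, was 75.3 ± 14.3 CPM in acellular and 96.8 ± 6.26 CPM in sham. VEGFC, a lymphatic growth factor, was 29.3 ± 8.25 and 32.6 ± 6.58 CPM in the same groups. PGF, the placental growth factor that binds FLT1, was 4.09 ± 1.11 CPM in acellular and 6.00 ± 0.74 in sham, and FLT4, the lymphatic VEGF receptor, 21.1 ± 2.29 and 21.7 ± 3.22 CPM. ANGPT1, the stabilising TEK ligand, was 1.69, 4.10 and 1.63 CPM in acellular 6, 8 and 10 and 9.64, 4.28, 2.04 and 6.20 CPM in PLATE 1, 5, 9 and 13. Its log2 fold change was 1.17 ± 0.54 (edgeR adjusted p = 0.875) and 0.76 without PLATE 1. PTPRB, the phosphatase that dampens TEK, was lowest in control 25 (10.5 CPM) and next in PLATE 1 (17.8 CPM) and ran to 83.7 CPM.

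Of 30 endothelial identity and junction genes, 18 were higher in sham than control (median log2 fold change 0.14), 9 in acellular than control (-0.23) and 20 in PLATE than control (0.17). Without control 25 the sham median was 0.028, PLATE had 16 higher (0.015) and acellular had 7 higher (-0.27). Without PLATE 1 PLATE had 17 higher (0.060), and without acellular 6 acellular had 12 higher (-0.11). In acellular against sham 5 of 30 were higher (median -0.22), and 9 without acellular 6 (-0.090). ERG, an endothelial transcription factor, stood at 23.9 ± 5.88 CPM in control, 21.9 ± 3.68 in sham, 20.1 ± 1.39 in acellular and 22.8 ± 0.97 in PLATE. NOS3, the endothelial nitric oxide synthase, was 5.86 ± 1.01 CPM in acellular and 8.49 ± 0.59 in PLATE. EMCN, an endothelial sialomucin, was 64 ± 19.0 and 49.5 ± 5.61 CPM in the same groups. Among 9 genes of endothelial activation and leukocyte adhesion, 0 were higher in sham than control (median -0.56) and 9 were higher in PLATE than sham (median 1.10). Without PLATE 1, 7 of 9 were higher (median 0.30). The 5 tested leukocyte markers went the same way, 0 of 5 being higher in sham than control (median -0.71) and 5 of 5 in PLATE than sham (median 1.51), and their part in these counts was not tested. SELE, the endothelial selectin, was 3.6 ± 1.08 CPM in acellular and 5.16 ± 1.83 in sham against 17.4 ± 19.3 in control. These log2 fold changes were -2.27 ± 0.79 (edgeR adjusted p = 0.827) and -1.75 ± 0.76 (edgeR adjusted p = 0.963), and without control 16, at 55.5 CPM, -1.44 and -0.92. VCAM1, another adhesion molecule, was 34.6 ± 30.2 CPM in control, 72.5 ± 68.6 in acellular and 39.5 ± 7.56 in PLATE.

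Of the 12 tested pericyte and mural cell genes, which mark the cells wrapped around small vessels, 0 were higher in acellular than sham (median log2 fold change -0.67). For 6 of the 12 every acellular library lay below every sham library, where 10.5% of all genes did so. Without acellular 6 there was 1 of 12 higher, with a median of -0.69. In the same comparison 5 of 5 smooth muscle markers were lower (median -1.99), and smooth muscle shares several of these genes. Their part in the result was not tested. PDGFRB, the platelet-derived growth factor receptor of pericytes, was 158 ± 27.1 CPM in acellular and 163 ± 21.2 in sham. RGS5, a regulator of signalling in pericytes, was 185 ± 35.0 and 223 ± 79.8 CPM. PLATE against acellular had 11 of 12 pericyte genes higher (median 0.46), and 12 of 12 without PLATE 1 (median 0.29). There, 5 of 5 smooth muscle markers (median 1.40) and 4 of 5 fibroblast markers (median 0.96) were higher too, and their part was not tested.

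The list of 17 tested hypoxia genes held HIF1A, EPAS1 and ARNT, which encode subunits of the hypoxia-inducible factors themselves, beside genes induced by low oxygen. Of the 17, 5 were higher in sham than control (median -0.21), 4 in acellular than control (-0.10) and 13 in PLATE than acellular (0.32). Without PLATE 1 the last was 12 (0.11), and without acellular 6 the acellular count against control was 6 (-0.14). CA9, a carbonic anhydrase induced by low oxygen, was 3.57 ± 2.03 CPM in acellular against 20.3 ± 18.3 in control (log2 fold change -2.50 ± 0.91, edgeR adjusted p = 0.827). The 3 acellular libraries were at 5.29, 4.10 and 1.33 CPM, and 2 controls were as low (1.76 CPM in control 9 and 3.35 CPM in control 29). HIF1A was 555 ± 168 CPM in control, 422 ± 26.1 in sham, 529.7 ± 188 in acellular and 612 ± 199 in PLATE. ADM, the vessel-dilating peptide adrenomedullin, was 14.3 ± 9.50 CPM in control and 7.97 ± 1.55 in sham. The glucose transporter SLC2A1 was 50.1 ± 10.0 CPM in control and 43.4 ± 12.3 to 57.2 ± 16.9 CPM in the operated groups. Of 10 sprouting and Notch genes, 6 were higher in sham than control (median 0.12; 5 and -0.010 without control 2), and the tip cell gene ESM1 had few counts, 5 to 9 in the sham libraries and 6 to 87 in control. Its log2 fold change was -2.29 ± 1.01 (edgeR adjusted p = 0.963). DLL4, a Notch ligand of tip cells, was 5.88 ± 2.07 CPM in control and 6.91 ± 2.05 in sham. Of 7 lymphatic endothelial genes, 6 were higher in acellular than sham (median 0.32), and 5 without acellular 6 (0.21). PROX1, the lymphatic transcription factor, was 9.68 ± 3.85 CPM in acellular and 6.60 ± 1.07 in sham, and LYVE1, a lymphatic hyaluronan receptor, 73.9 ± 27.6 and 59.2 ± 20 CPM. Of 14 angiogenesis inhibitors 7 were higher in acellular than sham (median 0.10), or 5 without acellular 6 (-0.27), and THBS1, thrombospondin, was 173 ± 32.4 and 123 ± 28.4 CPM.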

How the data were processed

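Polyadenylated RNA of rabbit vagina was sequenced as stranded libraries, per the labels' protocols. Per the submitters' processing notes, the tools were FastQC, HISAT2 2.2.1 and featureCounts; genome build, annotation and strand setting are not given in the sources used here, so overlapping and antisense genes cannot be told apart. The authors deposited raw read counts per gene symbol for 16 libraries, with 1 line that pools genes without a symbol. That line took 22.9 to 28.5% of the counts and was left out. Columns were matched to samples by their trailing sample index, since the rest of the column names did not match the labels.

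Library sizes were normalized by TMM, and the counts fitted in edgeR 4.0.16 (R 4.3.3; quasi-likelihood F test, filterByExpr, 1 mean per group, 12 residual degrees of freedom), with Benjamini-Hochberg adjustment over all 10942 genes tested and a threshold of 0.05. The fit was tested on simulated data. For acellular against control, with 10942 genes of which 200 were changed, it recovered 67% of genes changed 4-fold and 24% of those changed 2-fold. Ratios were tested by exact permutation and correlations by 100000 permutations, both two-sided. Correlations were computed for all 45 pairs of members and for PECAM1 and CDH5 with PTPRC.

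The members and lists were chosen with earlier results of these data known. All members are named; of 25 further genes named by their role in the pathway, 23 were tested, and VEGFB and CLDN5 were not analysed here. Other genes were named after their values were seen. The genes most alike in pattern are the 5 with the highest Pearson correlation. All 10 members matched a RefSeq symbol (assembly mOryCun1.1), and no coordinates are printed because the build of the files is not given. Alternatives were DESeq2 1.42.0 (size factors and test), no filter on low counts, limma 3.58.1 voom with quality weights, the compared groups alone, other pseudocounts for ratios, and libraries left out.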

Additional observations from a re-analysis of the deposited data

Results flagged for a closer look

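In 76 sets of 4 to 6 libraries checked (the members, the genes named by role and the 5 ratios, in control and in PLATE), 6 held a library far from the rest of its group. Chance gives about 1 in 20 sets if values are normally distributed and the sets independent. Gene levels were checked as CPM without a log scale and the sets share the same libraries, so that rate is only a rough guide. PECAM1 in PLATE 1 was 685 CPM, and the other PLATE libraries were 165 to 175 CPM. TIE1 in PLATE 1 was 17.6 CPM, below the 23.4 to 24.5 CPM of its group. VEGFC, a lymphatic growth factor, was 44.2 CPM in PLATE 1 and 29.0 to 29.8 CPM in the others. NRP1, a VEGF co-receptor, was 127 CPM in PLATE 13 and 75.9 to 79.3 CPM in the others. EMCN, an endothelial sialomucin, was 105.2 CPM in control 29 and 27.8 to 52.1 CPM in the other controls. SELE was 55.5 CPM in control 16 and 3.91 to 15.9 CPM in the other controls.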

How the results depend on the processing

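No member passed the threshold under any alternative. Which members had an unadjusted p under 0.05 moved with the tool. Voom gave VWF and not PECAM1 in PLATE against control, and VEGFA and not PECAM1 in PLATE against acellular. It also gave TIE1 and VEGFA in acellular against control and VEGFA in acellular against sham. In PLATE against sham, voom and the compared groups alone gave ANGPT2 and VWF. By voom 536 to 2648 of the 10942 genes had such a p per comparison. Of 67 log2 fold changes reported, 25 were larger than their standard error, and 0 of their 377 values under the alternatives changed sign. The 67 include the 7 of genes named by role that had an unadjusted p under 0.05. The 25 were picked by size in the same libraries that the alternatives reuse, so few sign changes could arise. The other 42 of the 67 were no larger than their standard error, and 95 of their 630 values changed sign. Where such a value is printed or counted, its sign is not a direction that can be relied on. Of 30 ratios, 5 were larger than their standard error, with 0 of 61 values changing sign, and 61 of 299 did so among the other 25. Those 5 ratios were picked by size in the same way. Counts over all genes moved with the tool: DESeq2 called 10 in acellular against control, 1 in acellular against sham, 14 in PLATE against sham, 1 in PLATE against acellular and 1 in the joint test, and voom called 72 in acellular against sham, where edgeR called 0; the cause was not tested. Alternatives chosen after seeing the data left out PLATE 1, control 2, control 25 or acellular 6. Members higher then ranged from 2 (without control 25) to 8 of 10 in acellular against control, were 5 of 10 in acellular against sham without acellular 6, and ranged from 6 to 8 in PLATE against control, with 6 in sham against control without control 25. Scaling by DESeq2 size factors moved the median of all genes by at most 0.0214 log2 units. Depth limits ESM1, which had 0 counts in 1 acellular library. No paired analysis was possible because control and PLATE share only the number 9 and no other groups share a number.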
